A study of Mus musculus with 9 samples.

Results

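The perilipins (Plin1 to Plin5), the CIDE proteins (Cidea, Cideb and Cidec) and the FIT proteins (Fitm1 and Fitm2) are 10 gene products that coat, enlarge or help to form the lipid droplets of a cell. Each of the 10 symbols had 1 transcript cluster, the array's unit of 1 gene, among 22206 clusters in all. The genes were chosen by symbol as a protein family, with earlier results of the same 9 arrays in view, among them higher Cidea and Fitm1 values in ob/ob than in wild-type liver. Their differences are therefore given as a description. The adjusted p values place each gene in the whole table and are no independent support.

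The arrays, Clariom S mouse arrays of whole liver, fall into 3 groups of 3 male mice. The first was C57BL/6JHamSlc-ob/ob mice gavaged with rice bean (Vigna umbellata) extract at 100 mg per kg body weight for 42 days. The second was ob/ob mice of the same strain given vehicle for 42 days, and the third was wild-type C57BL/6JHamSlc-+/+ mice given vehicle for 42 days. All were bought at 6 weeks of age and ate standard chow after 1 week of acclimatization. The ob/ob mouse lacks functional leptin in every tissue from birth and becomes obese with a fatty liver, so the genotype is set apart from wild type by food intake and body weight as well as by leptin. Nothing in the labels ties the replicate numbers to litters, cages or days, and each array was taken to be 1 mouse.

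A lipid droplet is a store of triglyceride and sterol ester that buds from the endoplasmic reticulum under a single layer of phospholipid. FIT proteins act at the endoplasmic reticulum during budding. Perilipins cover the surface and limit the access of lipases, and CIDE proteins gather at contacts between droplets and move lipid from the smaller into the larger one. In normal liver Plin2 is the main perilipin and Cideb the main CIDE protein. Plin1, Cidea and Cidec are better known from fat cells. The appearance of Cidea and Cidec in hepatocytes is a known feature of fatty liver in mice.

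Values are log2 intensities, so 1 unit is a doubling of signal, and levels of different genes are not set against each other because each has its own probes. A gene was called where the Benjamini-Hochberg adjusted p of limma over all clusters was under 0.05. The range of silent genes on an array was taken from 1091 olfactory receptor clusters, and its upper end, their 97.5th percentile, lay between 5.33 and 6.62. Ob/ob vehicle 3 and wild-type vehicle 3 stood apart from their groups, with interquartile ranges of 3.26 and 3.01 against 3.36 to 3.85 on the other arrays and with the highest silent ranges, so results are also given without both. Wild-type vehicle 2 carried striated muscle transcripts. Its skeletal actin gene Acta1 read 12.04, against 4.01 to 5.02 on the other 8 arrays, and 8 of 11 muscle markers were above the silent range there, against 0 to 3 elsewhere. The summed level of the muscle list on the log2 scale ran from 8.19 to 8.51 in ob/ob extract, from 7.91 to 8.24 in ob/ob vehicle and from 8.48 to 13.47 in wild type.

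Between ob/ob vehicle and wild-type liver, 4 of the 10 genes were called higher and 0 lower, where 2.28% of all clusters were called higher and 0.68% lower. The 4 were Cidea, Cidec, Plin2 and Fitm1. The other 5 with a positive difference were Fitm2, Plin4, Plin3, Plin5 and Cideb, and Plin1 alone was lower on average. Groups did not overlap for 5 genes that were higher and for 1 that was lower, where 9.71% of all clusters were higher without overlap and 9.78% lower. The median change of the 10 genes was 1.08, against -0.06 over all clusters. Whole liver was measured, so more cells that express a gene and more RNA per cell cannot be told apart.

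**Figure D1:**
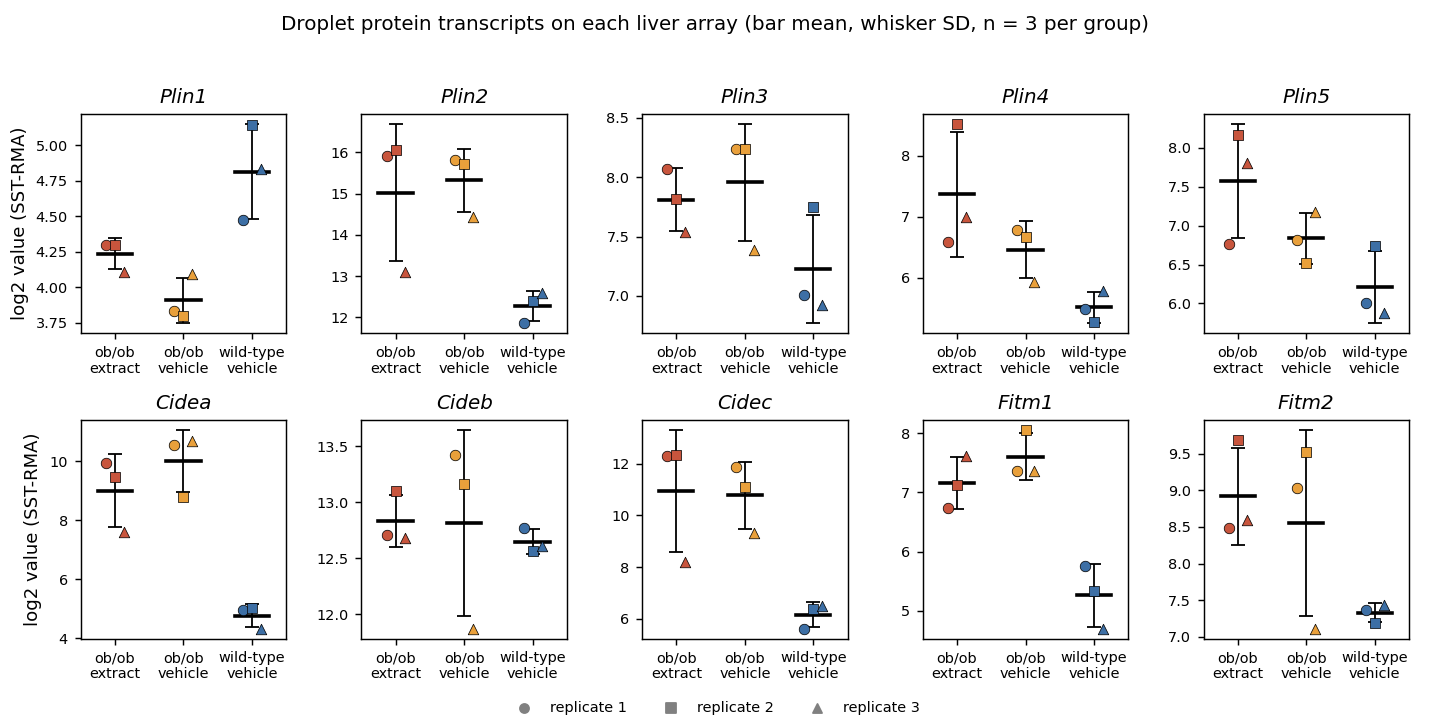
Log2 value of each gene (vertical axis, 1 panel per gene with its own scale) on the 3 arrays of ob/ob extract, ob/ob vehicle and wild-type vehicle, from left to right. Symbols mark replicate numbers, bars the group mean and whiskers the SD (n = 3). Cidea, Cidec, Plin2 and Fitm1 lie higher on all 6 ob/ob arrays than on any wild-type array, and extract replicate 3 is the lowest ob/ob array for Cidea, Cidec and Plin2.

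The promoters of Plin2, Cidec and Fitm1 are shown because these genes were higher together in ob/ob liver and Plin2 and Cidec are known targets of the fat-sensing nuclear receptors PPARalpha or PPARgamma in mouse liver. Each line is the 250 bases before a transcription start in RefSeq's table for GRCm38.p6, 5' to 3' on the gene's strand. Capitals mark the single match to a PPAR element, which is AGGTCA followed by 1 base and AGGTCA again, with up to 2 mismatches on either strand. Cidea, also called, is not among the windows used here.
Plin2, chr4:86670060-86670309, minus strand: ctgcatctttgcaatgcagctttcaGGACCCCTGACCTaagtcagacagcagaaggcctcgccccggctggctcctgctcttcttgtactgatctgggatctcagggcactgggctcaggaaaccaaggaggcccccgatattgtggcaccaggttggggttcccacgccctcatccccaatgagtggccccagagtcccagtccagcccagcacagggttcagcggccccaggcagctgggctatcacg
Cidec, first start, chr6:113435761-113436010, minus strand: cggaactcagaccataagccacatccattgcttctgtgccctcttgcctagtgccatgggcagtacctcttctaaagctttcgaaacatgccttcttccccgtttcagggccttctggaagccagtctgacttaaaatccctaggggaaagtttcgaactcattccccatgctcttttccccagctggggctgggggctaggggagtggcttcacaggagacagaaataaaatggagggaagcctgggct
Cidec, second start, chr6:113434765-113435014, minus strand: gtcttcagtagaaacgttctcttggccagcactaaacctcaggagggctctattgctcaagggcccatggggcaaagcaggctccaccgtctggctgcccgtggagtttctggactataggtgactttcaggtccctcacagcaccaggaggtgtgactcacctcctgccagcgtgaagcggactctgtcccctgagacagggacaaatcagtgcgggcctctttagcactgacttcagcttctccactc
Fitm1, chr14:55575424-55575673, plus strand: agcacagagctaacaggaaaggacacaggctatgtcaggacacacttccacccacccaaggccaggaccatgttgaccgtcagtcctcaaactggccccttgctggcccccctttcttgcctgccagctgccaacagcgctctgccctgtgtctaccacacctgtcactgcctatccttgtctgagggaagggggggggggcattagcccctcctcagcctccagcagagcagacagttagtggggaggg
The element matched in Plin2 alone among 11 windows of 9 member genes, on the reverse strand from base 225 to base 213 before the start and with 2 mismatches, and 3.24% of all 32851 promoter windows held such a match. AGGTCA by itself, which the Plin2 match contains, was in 2 of the 11 windows, those of Plin2 and Plin5, and in 14% of all windows. The letters CACGTG of a single E-box were in 0 of the 11 and in 6.02% of all windows, and a full carbohydrate-response element was not searched for. The letters TATAAA, searched anywhere in a window on either strand, were in the Cideb window alone and in 12.4% of all windows. In Cideb they ran from base 172 to base 167 before the start. A window without a match says only that these letters are not in these bases.

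Cidea, which in mice promotes droplet enlargement in brown fat and in steatotic liver, was called higher. It read 10.56, 8.80 and 10.68 in ob/ob vehicle, against 4.96, 5.02 and 4.33 in wild type. All 3 wild-type values lay in the silent range, so the gene is not shown to be measurable there. The log2 change was 5.24 (SE 0.63, 95% interval 3.85 to 6.64, adjusted p = 0.00306). With the wild-type arrays set to the upper end of their silent range, the ob/ob vehicle mean was 16.4-fold higher. That fold compares means and makes no allowance for sampling error. The call held in all 19 alternatives tried, with changes from 4.91 to 5.85 when single arrays were left out.

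Cidec, also named Fsp27, gives fat cells their single large droplet. Its values were 11.89, 11.10 and 9.33 in ob/ob vehicle and 5.62, 6.37 and 6.50 in wild type. The lowest ob/ob vehicle value was replicate 3, still above every wild-type value, and 1 of the 3 wild-type values was in the silent range. The change was 4.61 (SE 1.00, 95% interval 2.39 to 6.83, adjusted p = 0.0402), a 24.4-fold difference. Its call was lost in 9 of 19 alternatives, among them leaving out wild-type vehicle 2, where the change was 4.71 (adjusted p = 0.123), and ob/ob vehicle 1, where it was 4.05 (adjusted p = 0.148). The change lay between 4.05 and 5.50 over the 19 alternatives. Without both arrays that stood apart it was 5.50 (adjusted p = 0.00964).

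Plin2, the perilipin that coats droplets in most cells and whose protein is stabilised by lipid, read 15.82, 15.71 and 14.43 in ob/ob vehicle, against 11.86, 12.39 and 12.58 in wild type. The groups lay apart, and ob/ob vehicle 3 was again the lowest of its group. The change was 3.04 (SE 0.70, 95% interval 1.50 to 4.59, adjusted p = 0.0465), or 8.24-fold. Here too the call was lost in 9 of 19 alternatives, among them without wild-type vehicle 2 (3.10, adjusted p = 0.145), and leaving out single arrays moved the change between 2.79 and 3.49.

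Fitm1, which binds triglyceride and is known mainly from skeletal muscle and heart, read 7.37, 8.06 and 7.37 in ob/ob vehicle and 5.75, 5.34 and 4.70 in wild type. The change was 2.34 (SE 0.35, 95% interval 1.57 to 3.11, adjusted p = 0.00795), or 5.05-fold, and it was called in all 19 alternatives. Values of 2 of the 3 wild-type arrays were in the silent range. With those at its upper end the difference was 1.56. The wild-type array with muscle transcripts, replicate 2, was the middle one of its group for Fitm1, and without it the change was 2.38 (adjusted p = 0.0400).

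The other FIT gene, Fitm2, whose endoplasmic reticulum protein cleaves fatty acyl-CoA and is needed for normal droplet budding, was not called. It read 9.03, 9.52 and 7.11 in ob/ob vehicle, against 7.36, 7.19 and 7.44 in wild type. Replicates 1 and 2 of ob/ob vehicle were above and replicate 3 below all wild-type values. The change was 1.22 (95% interval from just below 0 to 2.45, adjusted p = 0.295) with all arrays, 1.95 (adjusted p = 0.0110) without ob/ob vehicle 3 and 2.00 (adjusted p = 0.0104) without both arrays that stood apart.

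Of the perilipins other than Plin2, none was called. Plin4, which binds large droplets through a long repeated helix and is known from fat and muscle, read 6.78, 6.67 and 5.93 in ob/ob vehicle and 5.49, 5.27 and 5.78 in wild type (change 0.95, adjusted p = 0.331). These groups did not overlap, but all wild-type values and 1 ob/ob vehicle value were in the silent range. Plin5, which tethers droplets to mitochondria in oxidative tissues, read 6.81, 6.52 and 7.18 in ob/ob vehicle, against 6.01, 6.74 and 5.88 in wild type (change 0.63, adjusted p = 0.459). The overlap came from wild-type vehicle 2, the array with muscle transcripts, without which the change was 0.89 (adjusted p = 0.379).

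Plin3, a soluble perilipin that moves onto new droplets, read 8.24, 8.24 and 7.39 in ob/ob vehicle and 7.01, 7.75 and 6.92 in wild type (change 0.73, adjusted p = 0.290). Its overlap also came from wild-type vehicle 2, without which the change was 0.99 (adjusted p = 0.231). Plin4 was instead lowest in wild type on that array, and the part of muscle transcripts in these values was not tested. Plin1, the fat cell perilipin that holds back hormone-stimulated lipolysis, was in the silent range on all 9 arrays. Its 3.83, 3.80 and 4.09 in ob/ob vehicle against 4.47, 5.14 and 4.83 in wild type (change -0.91, adjusted p = 0.0839) therefore gives no fold. Plin4 and Plin5 are neighbours on chromosome 17 with 0 protein-coding genes between them, and Plin3 lies 7 protein-coding genes from Plin5.

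Cideb, the CIDE protein of normal hepatocytes, which acts in lipidation of very low density lipoprotein, was above the silent range on all 9 arrays. It read 13.42, 13.16 and 11.87 in ob/ob vehicle, against 12.77, 12.56 and 12.61 in wild type. Replicates 1 and 2 of ob/ob vehicle were above all wild-type values and replicate 3 was below them. The change was 0.17 (SE 0.37, 95% interval -0.65 to 0.99, adjusted p = 0.866), and its sign turned after quantile normalization and with each array's interquartile range as a covariate, so no direction is given for it.

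**Figure D2:**
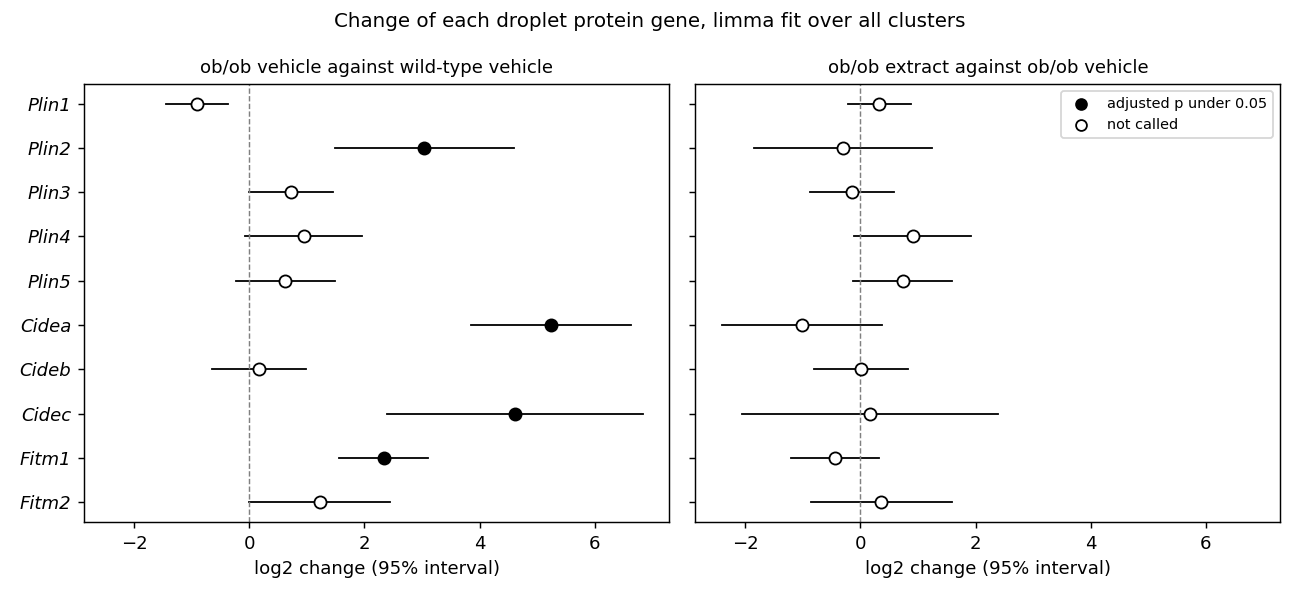
Log2 change of each gene (horizontal axis) with its 95% interval, not adjusted for multiple tests, in ob/ob vehicle minus wild-type vehicle (left) and in ob/ob extract minus ob/ob vehicle (right). Filled points have an adjusted p under 0.05, which Plin2, Cidea, Cidec and Fitm1 reach on the left and no gene reaches on the right.

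The extract was compared with vehicle in ob/ob mice to ask what it changed in the liver. None of the 10 genes was called by limma, and 0% of all 22206 clusters were, with 0 of the 10 genes and 1433 of all clusters at an unadjusted p under 0.05. Groups did not overlap for 1 gene that was higher, Plin1 within the silent range, and for 0 that were lower, where 7.47% and 6.08% of all clusters were higher and lower without overlap. The median change was 0.09 for the 10 genes and -0.01 for all clusters. Intervals were wide, so these data bound the effect of the extract without showing that there was none.

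With all 9 arrays the 2 genes with the largest positive differences were perilipins. Plin4 read 6.58, 8.52 and 7.00 in ob/ob extract, against 6.78, 6.67 and 5.93 in ob/ob vehicle (change 0.91, 95% interval -0.11 to 1.92, adjusted p = 0.786). Plin5 read 6.76, 8.17 and 7.80 in ob/ob extract and 6.81, 6.52 and 7.18 in ob/ob vehicle (change 0.74, 95% interval -0.12 to 1.60, adjusted p = 0.791). In both genes extract 1 lay within the vehicle group, and extract 2 and extract 3 lay above all of it. Without extract 2 the changes were 0.33 and 0.44, and without extract 1 they were 1.3 and 1.15.

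Cidea had the most negative difference with all 9 arrays. It read 9.92, 9.48 and 7.60 in ob/ob extract, against 10.56, 8.80 and 10.68 in ob/ob vehicle (change -1.01, 95% interval -2.41 to 0.38, adjusted p = 0.832). Extract 3 was below all vehicle values, and extract 1 and 2 were among them. Without extract 3 the difference was -0.31.

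Plin2 and Cidec had the same outlying array. Plin2 read 15.92, 16.05 and 13.11 in ob/ob extract and 15.82, 15.71 and 14.43 in ob/ob vehicle (change -0.29, 95% interval -1.84 to 1.25), and without extract 3 the sign turned to 0.67. Cidec read 12.31, 12.32 and 8.21 in ob/ob extract, against 11.89, 11.10 and 9.33 in ob/ob vehicle (change 0.17, 95% interval -2.05 to 2.40), and became 1.54 without extract 3. For both genes extract 1 and 2 were above every vehicle array and extract 3 below every one. Neither difference has a settled direction.

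For Fitm1, ob/ob extract read 6.74, 7.13 and 7.61 and ob/ob vehicle 7.37, 8.06 and 7.37 (change -0.44, 95% interval -1.21 to 0.33). Here extract 3 was the highest extract array, the reverse of its place for Cidea, Cidec and Plin2. Fitm2 read 8.48, 9.68 and 8.60 in ob/ob extract, against 9.03, 9.52 and 7.11 in ob/ob vehicle (change 0.37, 95% interval -0.86 to 1.59). The remaining changes were 0.01 for Cideb (95% interval -0.81 to 0.83), whose extract values were 12.71, 13.10 and 12.68, and -0.15 for Plin3 (95% interval -0.87 to 0.58), whose extract values were 8.07, 7.82 and 7.54. Both groups overlapped for each of these 4 genes.

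**Figure D3:**
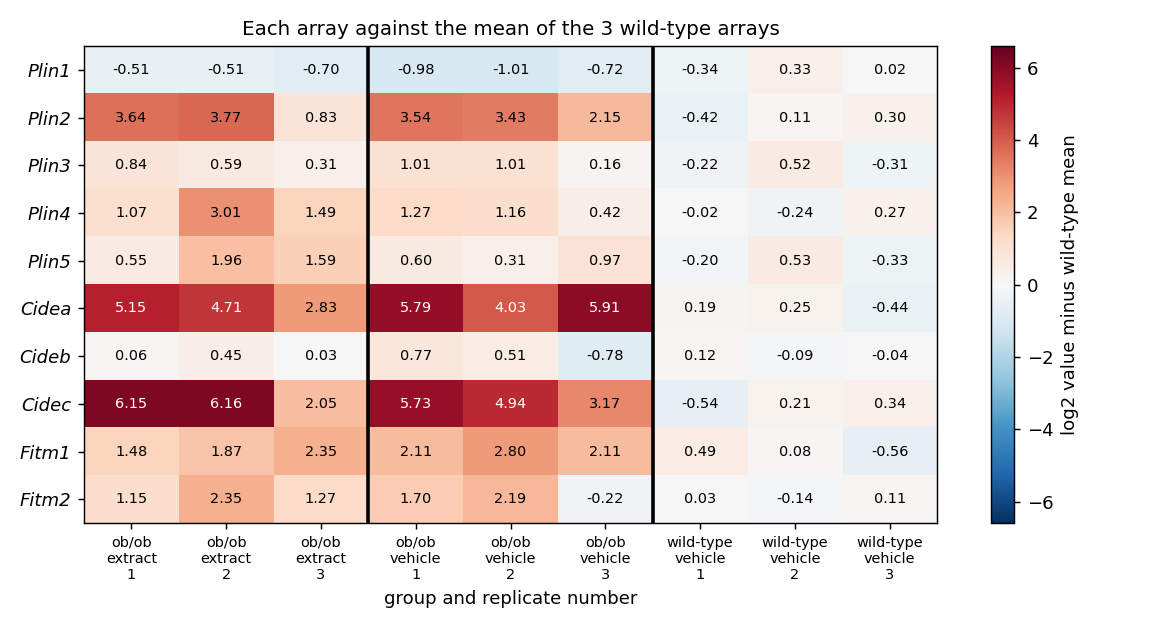
Log2 value of each gene (rows) on each array (columns, by group and replicate number) minus the mean of the 3 wild-type arrays, with the difference printed in each cell and red for higher. Cidec is 6.15 and 6.16 above the wild-type mean on extract 1 and 2 but 2.05 on extract 3, while Fitm1 is 2.35 above it on extract 3.

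Within the ob/ob groups the genes differed in which array was lowest. Measured from the wild-type mean, Plin2 was 3.64, 3.77 and 0.83 higher on the extract arrays and 3.54, 3.43 and 2.15 higher on the vehicle arrays. Cidec on the same arrays was 6.15, 6.16 and 2.05 higher with extract and 5.73, 4.94 and 3.17 higher with vehicle. Both were lowest on extract 3 and next lowest on vehicle 3.

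Cidea differed from that pair on vehicle 3, its highest array of all 9, at 5.91 above the wild-type mean. Of the 6 ob/ob arrays, vehicle 3 was the lowest for 4 of the 10 genes and extract 3 for 3, where they were lowest for 24.2% and 14.7% of all clusters. Extract 2 was the highest for 6 of the 10 genes and for 12.5% of all clusters. Vehicle 3 was also one of the arrays that stood apart over all clusters, and the part of that in these values was not tested.

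Extract-treated ob/ob liver was also set against wild type, a comparison that shares arrays with both others. Cidea and Fitm1 were called higher and 0 genes lower, where 0.977% of all clusters were called higher and 0.315% lower. Groups did not overlap for 7 genes that were higher (Plin2, Plin4, Plin5, Cidea, Cidec, Fitm1 and Fitm2) and for 1 that was lower (Plin1), where 11.1% and 10.6% of all clusters were higher and lower without overlap. The median change was 1.72, against -0.05 over all clusters.

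Cidea was 4.23 higher in ob/ob extract than in wild type (SE 0.63, adjusted p = 0.0111). The means differed 8.14-fold with wild type set to the end of its silent range, without allowance for sampling error. Its call was lost without extract 1 (adjusted p = 0.0545) or extract 2 (0.0749). Fitm1 was 1.90 higher (SE 0.35, adjusted p = 0.0286), and its call was lost in 6 of 19 alternatives, among them without wild-type vehicle 2 (adjusted p = 0.111). Cidec was 4.78 higher (95% interval 2.56 to 7.01), at an adjusted p of 0.0505, which became 0.00345 with a change of 6.15 when extract 3 was left out.

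Plin2 was 2.75 higher in ob/ob extract than in wild type (95% interval 1.20 to 4.30, adjusted p = 0.105), and 3.71 higher (adjusted p = 0.00581) without extract 3. Plin4, with all wild-type values in the silent range, was 1.85 higher (95% interval 0.84 to 2.87, adjusted p = 0.0943). Setting those values to the range's upper end gave a 2.62-fold difference of means, without allowance for sampling error. Plin5 was 1.37 higher (95% interval 0.51 to 2.23, adjusted p = 0.144). Fitm2 was 1.59 higher (adjusted p = 0.223), Plin3 0.58 (0.462) and Cideb 0.18 (0.865), while Plin1, in the silent range, differed by -0.58 (0.326). The difference between the extract and vehicle results against wild type is the extract comparison above, in which no gene was called.

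Other genes of the droplet pathway were read from lists chosen with earlier results known, in ob/ob vehicle against wild type. Of 17 measured genes of droplet formation and triglyceride synthesis, 3 rose and 1 fell. Over all clusters 2.28% were called higher and 0.68% lower. The glycerol-3-phosphate acyltransferase Gpam rose by 2.78 (adjusted p = 0.0402), the acyltransferase Agpat2 by 2.62 (0.0155) and the monoacylglycerol acyltransferase Mogat1 by 3.17 (0.00397). Mogat1 read 5.21 and 5.55 on wild-type vehicle 2 and 3, in the silent range of those arrays. The phosphatidate phosphatase and transcriptional co-regulator Lpin1 changed by -3.25 (0.0178). The seipin gene Bscl2 (0.73), Dgat1 (0.18) and Dgat2 (0.54), which encode the enzymes of the last triglyceride step, were not called. Dgat1 was above the silent range on only 4 arrays.

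Of 11 lipolysis genes, 2 rose and 0 fell, where 2.28% of all clusters were called higher and 0.68% lower. The 2 genes were the lysosomal lipase Lipa (2.00, adjusted p = 0.0288) and the monoglyceride lipase Mgll (2.46, 0.0320). The main droplet lipase Pnpla2 (0.74), its activator Abhd5 (-0.25) and its inhibitor G0s2 (0.80) were not called. Among 18 other droplet-associated genes the cholesterol ester hydrolase Nceh1 rose (2.69, 0.0136) and 0 fell. The liver droplet enzyme Hsd17b13 was not called (0.92, adjusted p = 0.229).

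Among 17 regulators 2 rose and 2 fell, where 2.28% of all clusters were called higher and 0.68% lower. The nuclear receptor gene Pparg, whose product drives fat cell genes, read 10.93, 10.57 and 8.61 in ob/ob vehicle, against 6.37, 7.09 and 6.11 in wild type (change 3.51, adjusted p = 0.00922). Vehicle 3 was the lowest of the 6 ob/ob arrays for 15 of the 17 regulators, Pparg among them, and for 8 of the 11 lipolysis genes, where it was lowest for 24.2% of all clusters. Insig2, which retains sterol sensors in the endoplasmic reticulum, rose by 2.25 (0.0182). Lpin1, which also stands in this list, fell, as did Mlxipl, the gene of the carbohydrate-response factor ChREBP, with a change of -3.35 (0.0267). The receptor gene Ppara was not called (0.67, adjusted p = 0.642).

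Of 21 PPAR target genes 8 rose and 0 fell, where 2.28% of all clusters were called higher and 0.68% lower. The list's median change was 1.71, against -0.06 over all clusters. The fatty acid translocase Cd36 rose by 6.67 (adjusted p = 1.17e-06) and the pantetheinase Vnn1 by 4.98 (0.00397). Cyp4a14, Slc25a20, Acadm and Ehhadh, which serve fatty acid hydroxylation, transport and oxidation, rose by 3.27, 2.35, 2.32 and 2.31. Mogat1 and the fatty acid binding protein Fabp4 (1.89, 0.0235) completed the 8. The angiopoietin-like gene Angptl4 (-0.78) and the droplet-associated Hilpda (-0.23) were not called. The count was 11 without both arrays that stood apart and 5 without wild-type vehicle 2.

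**Figure D4:**
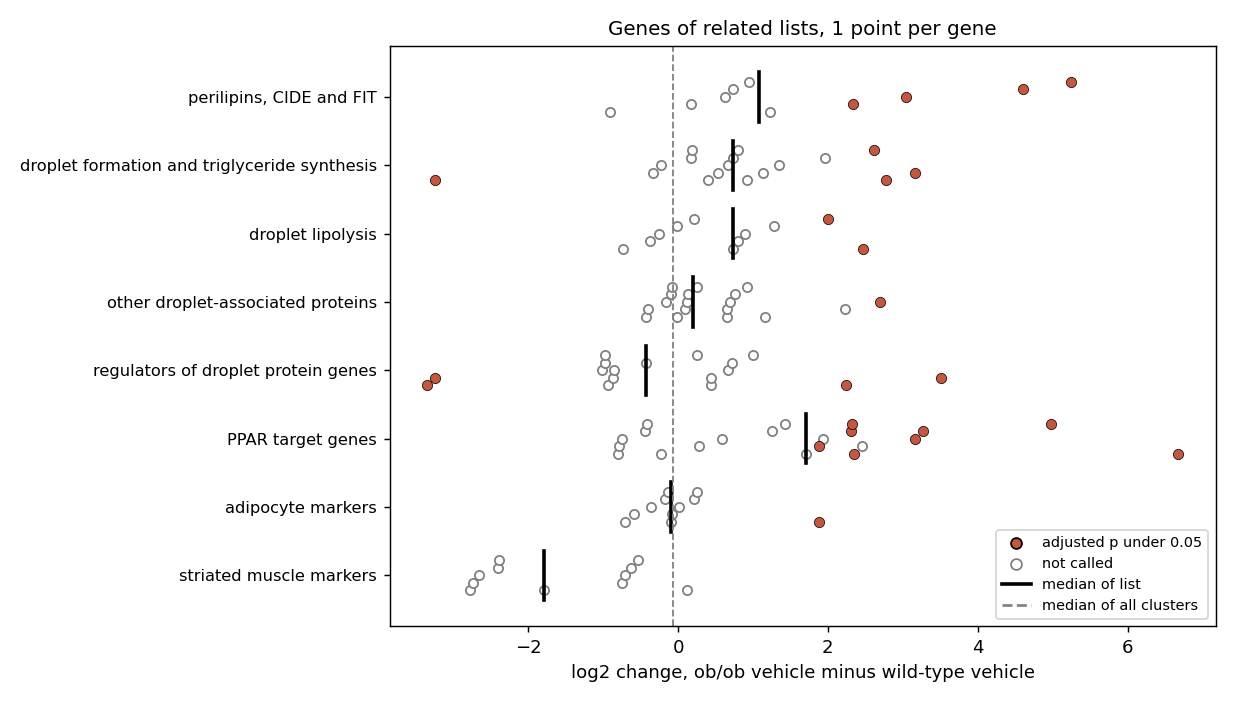
Log2 change in ob/ob vehicle minus wild-type vehicle (horizontal axis) for each gene of the perilipin, CIDE and FIT family and of 7 related lists (rows), with 1 point per gene, filled where the adjusted p was under 0.05, a black bar at the list's median and a dashed line at the median of all clusters. The family's median is 1.08 and that of the PPAR target genes 1.71, while the muscle markers lie mostly below 0 and were high on wild-type vehicle 2.

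In ob/ob extract against ob/ob vehicle 0 genes of these lists were called by limma. The 3 with the smallest p among the regulators were Cebpb (1.62, adjusted p = 0.593), Foxo1 (1.09, 0.707) and Nr1i2 (0.95, 0.709). All 3 encode transcription factors, and their groups did not overlap. In the lipolysis list they were the triglyceride hydrolase Ces1d (1.11, adjusted p = 0.593), the lipase inhibitor G0s2 (2.17, 0.741) and the phospholipase Ddhd2 (0.80, 0.791). In the formation list they were Lpin1 (1.50, adjusted p = 0.765), Agpat2 (-1.08, 0.765) and the glycerol-3-phosphate acyltransferase Gpat4 (0.85, 0.770). The groups of Ces1d, G0s2 and Ddhd2 did not overlap, and those of Agpat2 did not either, with extract lower. Among PPAR targets they were Angptl4 (1.14, adjusted p = 0.760), the acyl-CoA thioesterase Acot1 (1.44, 0.767) and Cyp4a10 (1.01, 0.823). Among other droplet-associated genes they were Hsd17b11 (0.92, 0.769), Vps13a (0.43, 0.845) and Lpcat2 (-0.36, 0.847). Lpcat2 was in the silent range on all 9 arrays, so it gives no fold. The groups of Angptl4, Hsd17b11 and Vps13a did not overlap either, with extract higher. Over all clusters 7.47% were higher and 6.08% lower without overlap. Genes picked for a small p tend to have groups that lie apart, so the lack of overlap adds no support. G0s2 read 10.55, 12.49 and 10.28 in ob/ob extract, against 8.52, 9.07 and 9.22 in ob/ob vehicle, without overlap. The differences of Pparg (-0.49) and Cd36 (-0.45) were not called either, the latter with extract lower without overlap.

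In ob/ob extract against wild type 8 of 21 PPAR targets rose and 0 fell. Over all clusters 0.977% were called higher and 0.315% lower. Of the 8 targets, 6 were also called in ob/ob vehicle against wild type, which shares the wild-type arrays. The 6 were Cd36 (6.23), Vnn1 (4.43), Cyp4a14 (4.20), Mogat1, Slc25a20 (2.44) and Acadm (1.83). The other 2 were the omega-hydroxylase Cyp4a10 (3.46, adjusted p = 0.0185) and the thioesterase Acot2 (2.31, 0.0433), while Ehhadh (adjusted p = 0.0657) and Fabp4 (0.0602) were not called. Between extract and vehicle none of these 4 was called. Pparg rose by 3.03 (adjusted p = 0.0254), and with it among the regulators the insulin-regulated factor Foxo1 (1.53, 0.0432) and the xenobiotic receptor Nr1i2 (1.39, 0.0495). Mogat1, whose wild-type values lay partly in the silent range, rose by 2.80 (0.00940) as the 1 called gene of droplet formation. Lipa (2.18, 0.0278), the phospholipase Ddhd2 (2.08, 0.0433) and Nceh1 (2.59, 0.0226) rose as well, and 0 genes of these lists fell. The PPAR target count was 2 without extract 2 and 10 without ob/ob vehicle 3.

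Markers of other cell types were read beside the family. Of 11 adipocyte markers 7 were in the silent range on all 9 arrays, and adiponectin, Adipoq, read 2.90 to 4.33. Fabp4 was the 1 adipocyte marker called, and hepatocytes of fatty liver and macrophages are known to express it too. The summed level of the adipocyte list was 9.93 to 10.28 in ob/ob extract, 9.97 to 10.61 in ob/ob vehicle and 8.82 to 9.23 in wild type. Without Fabp4 the sum of the other 10 was 7.82 to 8.31 in ob/ob extract, 7.79 to 8.21 in ob/ob vehicle and 7.94 to 8.22 in wild type. None of the macrophage (14 measured), stellate cell (12), striated muscle (11), cholangiocyte (5), endothelial (6) or hepatocyte (12) markers was called between ob/ob vehicle and wild type. Of the 12 hepatocyte markers, 4 were lower in ob/ob vehicle without overlap and 1 was higher, and changes ran from -1.66 to 0.91. Over all clusters 9.78% were lower and 9.71% higher without overlap. All 12 hepatocyte markers were above the silent range on all 9 arrays. Of these, 7 lay within 0.1 log2 of the array's highest value on at least 1 array and 3 (Alb, Ahsg and Trf) on all 9, where a change could not be read.

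For each called gene the 3 genes with the most similar pattern over the 9 arrays were found by the root mean square difference of log2 values, each gene centred on its own mean, among 17163 named genes. For Fitm1, with the smallest differences, they were Tmem134 (0.212), the ketohexokinase gene Khk (0.239) and Spg7 (0.315). For Plin2 they were Abhd2 (0.612), Ifi27l2b (0.634) and the carbonyl reductase Cbr1 (0.658). For Cidea they were Slc22a27 (0.706), the acute phase gene Orm2 (0.766) and Anxa5 (0.820), and for Cidec Slc22a27 (0.842), Vnn1 (0.921) and Pex11a (1.00). The values of Cidec and its neighbours differed by about 1 log2 unit per array, so the likeness is loose. The measure is not scaled to the size of a gene's own change, so it does not rank likeness between the called genes.

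**Figure D5:**
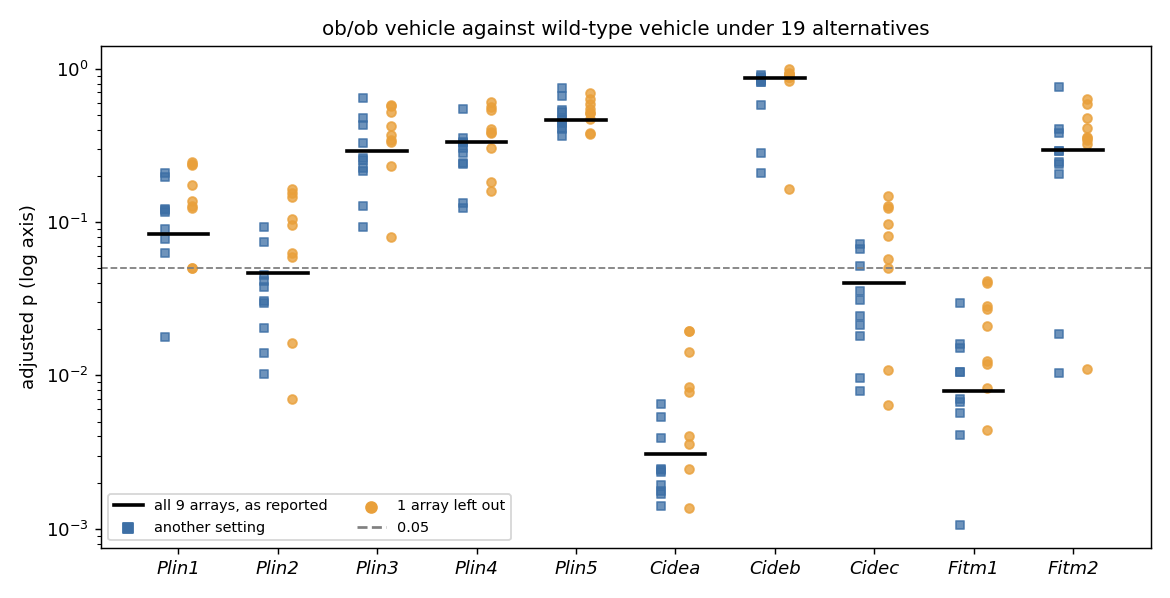
Adjusted p (vertical log axis) of each gene in ob/ob vehicle against wild-type vehicle, with the reported value as a black bar, other settings as squares and fits without 1 array as circles, and the dashed line at 0.05. Cidea and Fitm1 stay below the line throughout, while the points of Plin2 and Cidec lie on both sides of it.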

How the data were processed

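The authors deposited a log2 value for each transcript cluster on each array, made with SST-RMA in the Transcriptome Analysis Console 4.0.2 per the labels' design text, an algorithm that transforms signal space before robust multi-chip averaging and so sets the size of differences. They run from 1.86 to 19.93. Detection calls were not used here. Clusters were named through the platform annotation.

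Group means were fitted to the 9 arrays together with limma 3.58.1 in R 4.3.3 (lmFit, default eBayes), all 22206 clusters were tested, and p was adjusted over all of them by the Benjamini-Hochberg method. The fit was first tested on data drawn with known changes. Each p sets a difference of group means against the spread between mice within groups. That spread was pooled over all 9 arrays and moderated over all clusters, so it also depends on the group not compared. The 3 mice per group limit the precision.

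The members and lists were chosen with earlier results of these data known. Named were all 10 members, genes called in the droplet, regulator, PPAR target and adipocyte lists, the 3 with the smallest p in droplet, regulator and PPAR target lists without a call, and the 3 nearest patterns. Bscl2, Dgat1, Dgat2, Pnpla2, Abhd5, G0s2, Hsd17b13, Ppara, Hilpda, Angptl4 and Adipoq, and Pparg and Cd36 in the extract comparison, were named for their known roles, and Acta1, Alb, Ahsg and Trf were chosen after their values were seen. Same-numbered arrays of ob/ob vehicle and wild type deviated from their group means together (correlations 0.256, 0.262 and 0.450), which met the limit of 0.1 for treating numbers as pairs. Those of the other comparisons did not. Deviations within a group of 3 cancel out, so the 3 correlations are not separate. Both replicate 3 arrays also stood apart over all clusters, so these values do not show that mice were paired. The reported fit used no pairing. Alternatives were other scalings, weights, filters and blocks, and each array left out. Promoter sequences are RefSeq's for GRCm38.p6. The array's genome build is not given in the sources used here.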

Additional observations from a re-analysis of the deposited data

How the results depend on the processing

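Between ob/ob vehicle and wild type, 4 members were called as reported, 2 after quantile normalization, 2 with a covariate for each array's interquartile range, and 2 to 5 with 1 array left out. Array weights gave 6, adding Fitm2 (1.91, adjusted p = 0.0187) and, as lower within the silent range, Plin1 (-1.03, adjusted p = 0.0178). The design text's criterion gave 6 (5 higher), and leaving out both arrays that stood apart gave 5. With 1 array left out, the 5 came without ob/ob vehicle 3. The 2 came without extract 2, ob/ob vehicle 1 or 2, or any 1 wild-type array, each of which kept Cidea and Fitm1. Between ob/ob extract and wild type the count was 2 as reported, 6 with array weights, 6 without both arrays that stood apart, 8 under the design text's criterion (unadjusted p under 0.05, fold over 1.1), 1 with that covariate and 0 to 5 with 1 array left out, with 0 without extract 1 or 2. Between extract and vehicle it was 0 in each alternative run. With the replicate block the 3 counts were 4, 0 and 3, and no call changed except that Cidec against wild type was gained in extract liver (adjusted p = 0.0265).

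Signs turned in uncalled differences. For Cideb, ob/ob vehicle minus wild type was -0.19 after quantile normalization, -0.41 with the covariate and -0.13 to 0.64 with 1 array left out, and extract minus wild type was -0.11 after quantile normalization and -0.30 with the covariate. Between extract and vehicle, array weights gave -0.27 for Cideb, -0.18 for Cidec and -0.14 for Fitm2, and leaving out both arrays that stood apart gave -0.46, -0.55 and -0.36. With 1 array left out the ranges were -0.46 to 0.32 for Cideb, -0.55 to 1.54 for Cidec, -0.36 to 0.85 for Fitm2 and -0.81 to 0.67 for Plin2. The causes were not tested.

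Over the whole array ob/ob vehicle against wild type had 658 calls (77.1% of them higher), 546 after quantile normalization (53.1% higher), 2137 with array weights, 207 with 2 groups fitted, 1745 leaving out both arrays that stood apart and 147 without wild-type vehicle 2. Between extract and vehicle 0 were called as reported, 106 with array weights (25.5% higher) and 360 without both arrays (13.3% higher). Leaving out ob/ob vehicle 3 alone gave 51 calls, all of them lower. Between extract and wild type 287 were called (75.6% higher) and 250 after quantile normalization (61.2% higher). List counts moved as well with 1 array left out, for PPAR targets from 5 to 11, for formation from 1 to 6, for lipolysis from 0 to 4 and for regulators from 1 to 4. Each member had 1 cluster, so choosing another cluster per symbol gave no value. Plin1 was below the filter on the lowest 50% of clusters.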
